A study of Mus musculus with 6 samples.

Results

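Described here are 10 genes of granulocyte precursors, bone and osteoclasts in skeletal muscle of PRR14-knockout mice, chosen by symbol from a table of 22036 genes because earlier results had shown them to vary between libraries. They are S100a8, S100a9, Ngp, Camp, Ltf, Elane and Mpo of granulocytes and their marrow precursors, Bglap of osteoblasts, and Acp5 and Ctsk of osteoclasts. All 10 were found, each as a single row. The read counts of the same 6 libraries chose them, so their values are given as a description. Where test results for the 10 genes are printed below, nothing is read from them.

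Both groups lacked PRR14, a nuclear protein, and both were collected 1 month after injection with AAV, an adeno-associated viral vector used to deliver genes. In the MEF2C group (3 libraries) the virus carried MEF2C-GFP, that is MEF2C, a transcription factor of muscle genes, with green fluorescent protein; in the GFP group (3 libraries) it carried GFP alone. The design asks what raised MEF2C does in muscle that lacks PRR14. Values of a group are given in the order of replicates 1, 2 and 3 throughout. The labels name no individual muscle, age, sex, viral promoter or injection route and do not say whether libraries come from separate animals, and no wild-type or uninjected muscle was analysed here.

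Neutrophils and other granulocytes are made in the bone marrow, where precursors fill their granules in waves. Azurophil (primary) granule proteins such as myeloperoxidase and neutrophil elastase are transcribed first, specific (secondary) granule proteins such as lactoferrin follow, and transcription of both is largely shut off before mature cells enter the blood. Bone matrix is laid down by osteoblasts, which secrete osteocalcin, and is removed by osteoclasts, macrophage-lineage cells that secrete acid phosphatase and cathepsin K. Myofibres are not known as a source of the granule proteins or of osteocalcin. In bulk tissue, fewer cells of a type and less RNA per cell cannot be told apart.

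Promoter sequences are shown as a description. The 7 granulocyte genes were high in the same libraries, MEF2C replicate 1 and GFP replicate 3, whereas the 38 reads of Bglap lay mostly in MEF2C replicates 1 and 2. Those reads are uncertain between osteocalcin copies, and the copy Bglap2 had 43 counts in GFP replicate 3. Any part of promoter sequence in these levels was not tested. Each is the stretch before both the RefSeq and the GENCODE start of the gene, 5′ to 3′ on the gene's strand, from RefSeq's GRCm38.p6 table, in which all 10 genes had a 300-base window. The stretches are chr3:90695722-90695971 (minus strand) for S100a9, chr9:110419558-110419746 (plus) for Ngp, chr9:111019042-111019270 (plus) for Ltf, chr10:79886062-79886246 (plus) for Elane, chr11:87793534-87793580 (plus) for Mpo and chr3:88384467-88384716 (minus) for Bglap. Capitals mark matches on either strand to the C/EBP core TTGCNNAA, the PU.1 core GAGGAAG and the RUNX core TGTGGT, which reads ACCACA on the other strand. C/EBP and PU.1 are factors of the granulocyte lineage, and RUNX factors act in blood and bone.
S100a9: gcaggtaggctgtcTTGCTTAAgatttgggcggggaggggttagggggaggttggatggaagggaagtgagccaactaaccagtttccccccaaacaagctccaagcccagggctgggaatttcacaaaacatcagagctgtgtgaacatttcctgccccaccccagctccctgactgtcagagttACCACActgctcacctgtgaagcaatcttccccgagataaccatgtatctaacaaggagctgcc
Ngp: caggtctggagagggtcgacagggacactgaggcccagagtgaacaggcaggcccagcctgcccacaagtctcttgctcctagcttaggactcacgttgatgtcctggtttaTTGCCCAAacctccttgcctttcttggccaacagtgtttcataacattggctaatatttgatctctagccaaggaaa
Ltf: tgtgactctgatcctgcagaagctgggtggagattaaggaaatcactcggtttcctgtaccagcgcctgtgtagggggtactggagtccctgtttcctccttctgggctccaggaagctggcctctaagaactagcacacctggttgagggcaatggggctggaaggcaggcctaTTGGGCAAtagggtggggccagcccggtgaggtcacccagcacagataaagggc
Elane: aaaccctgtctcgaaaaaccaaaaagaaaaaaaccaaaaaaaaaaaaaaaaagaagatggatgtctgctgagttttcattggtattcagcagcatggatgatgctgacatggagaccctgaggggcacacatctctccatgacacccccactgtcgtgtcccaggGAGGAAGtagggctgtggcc
Mpo: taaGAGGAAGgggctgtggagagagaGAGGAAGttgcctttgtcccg
Bglap: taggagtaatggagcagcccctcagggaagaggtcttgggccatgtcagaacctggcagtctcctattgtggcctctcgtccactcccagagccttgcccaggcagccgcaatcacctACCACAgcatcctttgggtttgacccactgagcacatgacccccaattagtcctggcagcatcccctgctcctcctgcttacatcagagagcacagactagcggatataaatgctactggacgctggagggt
Over the full windows, from 250 bases before to 50 after the RefSeq start, the C/EBP core was found for 3 of the 7 granulocyte genes (S100a9, Ngp and Ltf) and in 10.8% of all 32851 windows. The PU.1 core was found for 3 of 7 (S100a8, Elane and Mpo), against 13.6% of all windows. The RUNX core was found for 2 of 7 (S100a9 and Ltf) and for Bglap, against 16.8% of all windows. The window of Ctsk held the C/EBP and the PU.1 core, and that of Acp5 and of Camp held none of the 3. The match of Ltf to the RUNX core lies outside the stretch printed, and no matches overlap in the printed stretches. A match describes the letters of the window and does not show binding.

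The libraries held 3814844 to 3838894 listed counts in the MEF2C group and 3370833 to 3900617 in the GFP group, with 13001 to 13637 genes detected in each. A count of 0 allows up to 3 counts, between 0.726 and 0.957 normalised CPM (counts scaled to the library total after edgeR's TMM normalisation, written CPM below). Prr14, the deleted gene, had 20 to 30 counts in the MEF2C group and 11 to 15 in the GFP group, and with no wild-type library these do not check the knockout. Mef2c, the gene the virus supplied, had 903, 786 and 1535 counts in the MEF2C libraries and 753, 819 and 889 in the GFP libraries (log2 fold change 0.15 ± 0.22 SE, edgeR adjusted p = 0.993). MEF2C replicate 3 was the highest, and the groups overlapped. The muscle markers Ckm, Acta1, Myh4, Myh1, Mylpf, Tnnt3, Tnni2, Tnnc2, Mb and Des, all detected, summed to between 166145 and 181356 CPM in the MEF2C group and 208192 to 242446 in the GFP group. Of these, Mylpf, a fast myosin light chain, was lower in the MEF2C group (log2 fold change -0.79 ± 0.11 SE, edgeR adjusted p = 0.0189) and the other 9 did not pass the test. The call for Mylpf was lost without MEF2C replicate 1 or 2 or GFP replicate 2 or 3 (edgeR adjusted p = 0.106 to 0.214). MEF2C replicate 1 stood apart for the genes described here, and results that rest on it are given with and without it.

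Granulocyte genes were abundant in MEF2C replicate 1, present at a lower level in GFP replicate 3, and near the counting floor in the other 4 libraries. The 7 genes summed to 1200.4, 4.23 and 2.90 CPM in the MEF2C libraries, against 2.67, 2.23 and 74.5 CPM in the GFP libraries. As a share of listed reads this was 0.121% in MEF2C replicate 1 (95% exact interval 0.117% to 0.124%) and 0.00720% in GFP replicate 3 (0.00639% to 0.00810%). Intervals cover counting error only and take each read as independent. The protocols name no molecular identifiers, so PCR copies cannot be told apart and the intervals may be too narrow. Each of the 7 genes was highest in MEF2C replicate 1 and next highest in GFP replicate 3, so that neither group was uniform. The MEF2C mean of the sum was 15.2 times the GFP mean with all libraries, 0.135 times it without MEF2C replicate 1, and 164 times it without GFP replicate 3. The direction of the difference in means thus turned when 1 library was left out. Gene by gene the ratio of means lay between 12.6 for Camp and 26.3 for Ltf, and without MEF2C replicate 1 between 0.0282 (Camp) and at most 0.695 (Mpo).

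**Figure D1:**
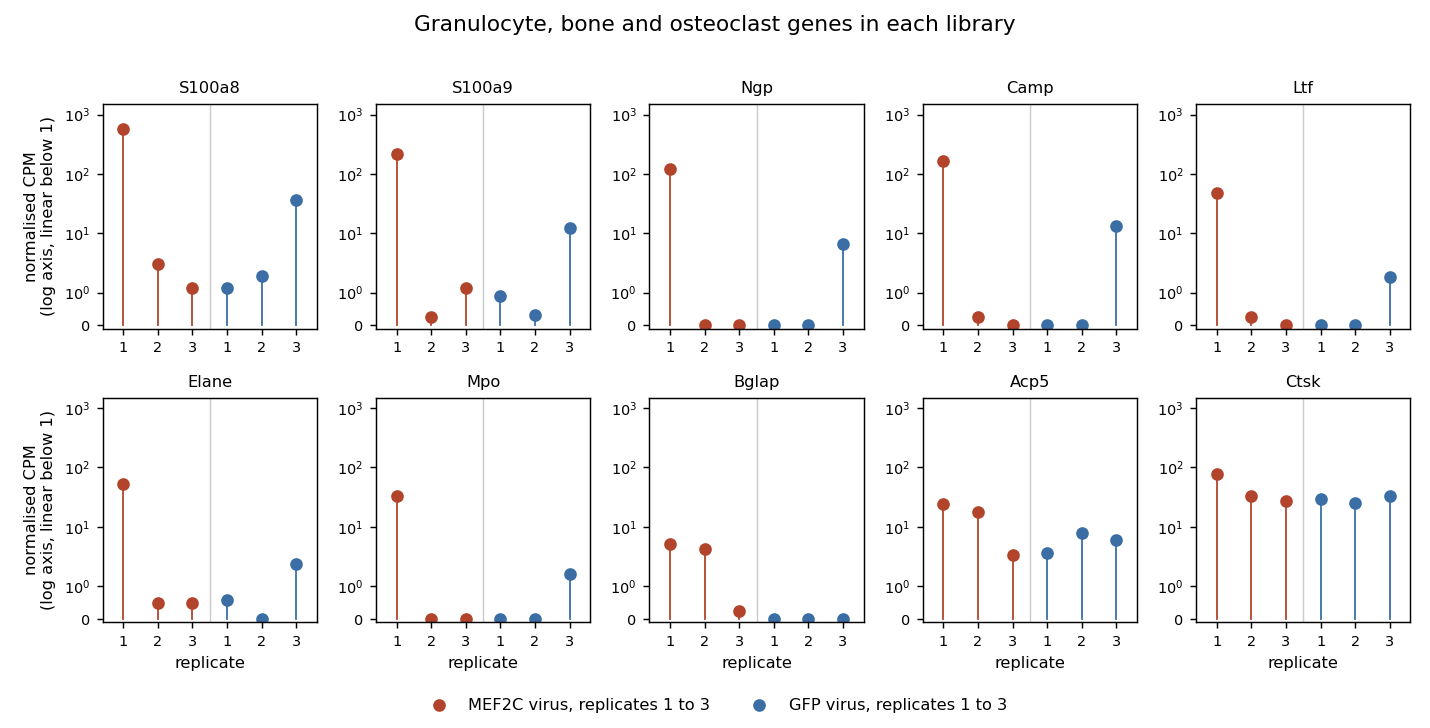
Normalised CPM of each of the 10 genes (log axis, linear below 1) in the 3 MEF2C libraries (red, left) and the 3 GFP libraries (blue, right), with a point per library and a line down to 0. The 7 granulocyte genes stand out in MEF2C replicate 1 and, lower, in GFP replicate 3, Bglap in MEF2C replicates 1 and 2, and Ctsk is present in all 6.

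S100a8 and S100a9 encode the calcium-binding partners of calprotectin, which fills the cytosol of neutrophils and is also made by monocytes. S100a8 (ENSMUSG00000056054, GRCm38 chromosome 3, 90668978 to 90670035, plus strand) had 2173, 12 and 5 counts in the MEF2C libraries, against 4, 6 and 137 in the GFP libraries. S100a9 (ENSMUSG00000056071, chromosome 3, 90692632 to 90695721, minus strand) had 835, 1 and 5 counts in the MEF2C libraries and 3, 1 and 47 in the GFP libraries. Both were therefore detected in all 6 libraries, and the groups overlapped. Their levels were 563 and 216 CPM in MEF2C replicate 1, and between 0.249 and 2.99 CPM outside MEF2C replicate 1 and GFP replicate 3. S100a8 averaged 189 ± 324 CPM in the MEF2C group and 13.1 ± 20.1 CPM in the GFP group (SD, n = 3 each), so that in both groups the spread exceeded the mean.

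The specific granule genes had nearly all of their reads in MEF2C replicate 1 and GFP replicate 3. Ngp, neutrophilic granule protein (ENSMUSG00000032484, chromosome 9, 110419747 to 110423012, plus strand), had 467 counts in MEF2C replicate 1 and 25 in GFP replicate 3, and 0 in each of the other 4 libraries. Camp, the cathelicidin antimicrobial peptide (ENSMUSG00000038357, chromosome 9, 109847379 to 109849617, minus strand), had 641, 1 and 0 counts in the MEF2C libraries and 0, 0 and 50 in the GFP libraries. Ltf, the iron-binding lactoferrin (ENSMUSG00000032496, chromosome 9, 111019271 to 111042767, plus strand), had 187, 1 and 0 counts in the MEF2C libraries and 0, 0 and 7 in the GFP libraries. These 3 genes lie on the same chromosome. In MEF2C replicates 2 and 3 together they had 2 reads.

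The azurophil granule genes, made by the earliest granulocyte precursors, had the same distribution. Elane, neutrophil elastase (ENSMUSG00000020125, chromosome 10, 79886247 to 79888215, plus strand), had 201, 2 and 2 counts in the MEF2C libraries and 2, 0 and 9 in the GFP libraries. Mpo, myeloperoxidase (ENSMUSG00000009350, chromosome 11, 87793581 to 87804413, plus strand), had 129, 0 and 0 counts in the MEF2C libraries and 0, 0 and 6 in the GFP libraries. The predicted gene Gm11505 overlaps Mpo on the opposite strand, and the use of strand in counting is not given in the sources used here. Between 92.6% (Camp) and 95.9% (Ltf) of the reads of each of the 7 genes came from MEF2C replicate 1.

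Across the 7 genes, MEF2C replicate 1 and GFP replicate 3 differed more in the amount of reads than in the shares of single genes. Of the 4633 reads of the 7 genes in MEF2C replicate 1, 46.9% were S100a8 (exact 95% interval 45.5% to 48.4%), and of the 281 in GFP replicate 3, 48.8% were (42.8% to 54.8%). Camp made up 13.8% (12.9% to 14.9%) and 17.8% (13.5% to 22.8%) in the same order, Elane 4.34% (3.77% to 4.97%) and 3.20% (1.47% to 5.99%), and Mpo 2.78% (2.33% to 3.30%) and 2.14% (0.788% to 4.59%). For all 7 genes the intervals of the shares overlapped between these libraries. Ltf, Elane and Mpo had only 7, 9 and 6 reads in GFP replicate 3, so their overlap does not show a like make-up. The summed ratios of further granulocyte genes, given below, ran from 5.28 to 23.5, against 16.1 for these 7. The ratio of MEF2C replicate 1 to GFP replicate 3 lay between 12.5 for Camp (95% counting interval 9.39 to 17.1) and 26.1 for Ltf (12.4 to 65.9). Genes of both granule stages were thus present beside the S100 genes in each of these libraries.

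**Figure D2:**
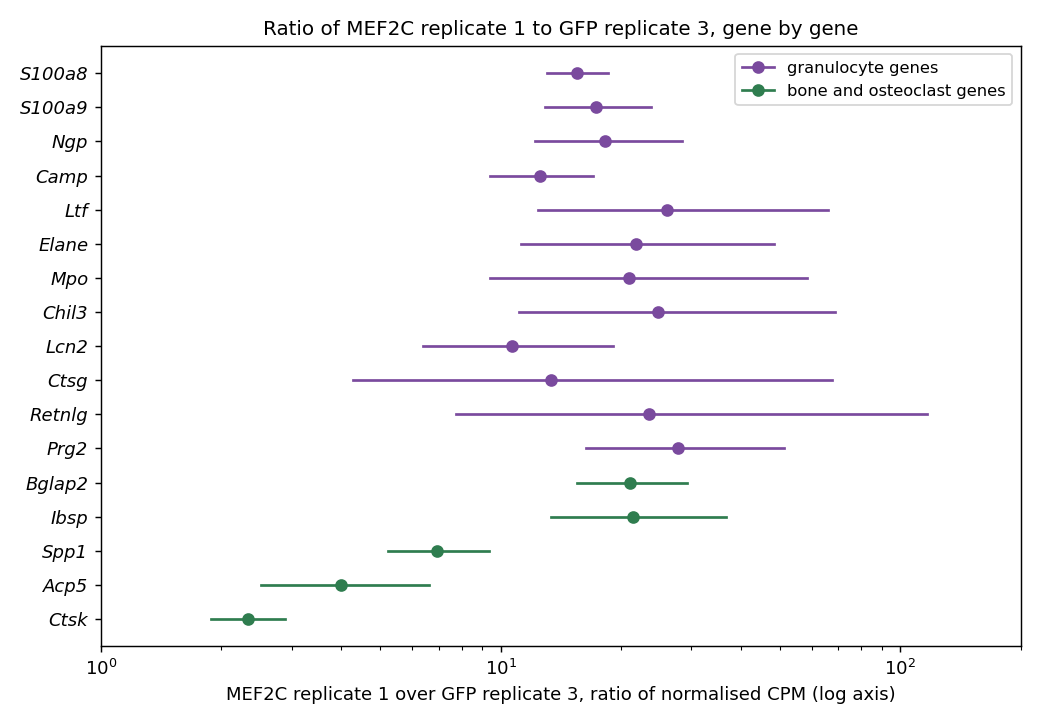
Ratio of normalised CPM in MEF2C replicate 1 to GFP replicate 3 for 12 granulocyte genes (purple) and 5 bone and osteoclast genes (green), on a log axis, with points for the ratio and lines for the 95% counting interval. Granulocyte genes, Bglap2 and Ibsp lie between 10.7 and 27.8, Spp1 at 6.93, Acp5 at 4.0 and Ctsk at 2.33.

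Other genes of the granulocyte lineage, taken from lists of textbook markers, were low outside MEF2C replicate 1. The 6 further azurophil-stage genes (Prtn3, Ctsg, Ms4a3, Fcnb, Cebpe and Gfi1) summed to 24.9, 0.747 and 0.242 CPM in the MEF2C libraries and 0.593, 0.957 and 1.06 in the GFP libraries, and all 6 were highest in MEF2C replicate 1. Ctsg, the protease cathepsin G, had 41, 0 and 0 counts in the MEF2C libraries and 1, 0 and 3 in the GFP libraries. The 8 further genes of the specific granule stage (Lcn2, Chil3, Cd177, Mmp8, Pglyrp1, Padi4, Itgb2l and Ifitm6) summed to 124, 6.97 and 7.26 CPM against 3.85, 4.47 and 8.48, and all 8 were highest in MEF2C replicate 1. Chil3, a chitinase-like protein, had 152, 0 and 1 counts in the MEF2C libraries and 0, 0 and 6 in the GFP libraries.

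As a sum, mature neutrophil genes other than S100a8 and S100a9 stood less far above the other libraries in MEF2C replicate 1. The 9 of them summed to 35.0, 4.98 and 4.84 CPM in the MEF2C libraries and 2.67, 3.83 and 6.63 in the GFP libraries. Retnlg, a resistin-like protein of neutrophils, had 72 counts in MEF2C replicate 1 and 3 in GFP replicate 3, a ratio of 23.5 in CPM. Cxcr2, the receptor that draws neutrophils to chemokines, had 15, 5 and 1 counts in the MEF2C libraries and 2, 2 and 6 in the GFP libraries, and Il1b had 1, 0 and 1 against 0, 0 and 2. Csf3r, the receptor for the granulocyte growth factor, was at 0 in all 6 libraries. The ratio of MEF2C replicate 1 to GFP replicate 3 was 23.5 for these 6 azurophil genes summed, 14.7 for the 8 specific granule genes and 5.28 for the 9 mature neutrophil genes. In GFP replicate 3 these sums rest on 4, 32 and 25 reads in the same order, and the order of the ratios was not tested. With the chosen genes of each list included, the ratios were 21.9, 15.2 and 14.7 in that order. The low value for mature neutrophil genes thus depends on leaving out S100a8 and S100a9.

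Of the granulocyte genes outside the 7, only Lcn2, the iron-sequestering protein lipocalin 2, passed the filter on low counts. It had 175, 11 and 12 counts in the MEF2C libraries and 4, 4 and 16 in the GFP libraries, and did not pass the test (log2 fold change 2.85 ± 1.66 SE, edgeR adjusted p = 0.951). Without MEF2C replicate 1 its fold change was 0.28 on the log2 scale (edgeR adjusted p = 0.997). Of the 10 genes chosen, 3 (S100a8, Acp5 and Ctsk) passed that filter and 7 did not. Of those 3, edgeR called 0, with 0 at an unadjusted p under 0.05, limma-voom called 0, and DESeq2 called 0 of the 1 for which it gave an adjusted p, with 1 at an unadjusted p under 0.05. Among all 9229 tested genes edgeR called 7, or 0.0758%, of which 0.0325% were higher and 0.0433% lower, and nothing is read from the count for the 10.

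Bglap had nearly all of its few reads in MEF2C replicates 1 and 2. Bglap2 and Ibsp, other bone matrix genes described below, were also present in GFP replicate 3. Bglap (ENSMUSG00000074483, chromosome 3, 88383501 to 88384464, minus strand) encodes osteocalcin, a calcium-binding matrix protein of osteoblasts, and had 20, 17 and 1 counts in the MEF2C libraries. It had 0 counts in each GFP library, so that all MEF2C libraries lay above all GFP libraries, the third by a single read. Of the 9229 tested genes 5.75% had all MEF2C libraries above all GFP libraries and 5.33% below; 1 of the 10, Bglap, which was not among the tested, had them above and 0 of the 10 below. Its MEF2C mean was 3.22 ± 2.62 CPM (SD, n = 3), at least 11-fold higher than the GFP group, taking 3 counts over that group as the floor. This bound was 7.67-fold without MEF2C replicate 1, 16.1-fold without MEF2C replicate 3 and 6.98-fold without GFP replicate 3. Reads of Bglap are uncertain between copies, since its longest transcript is 98.9% identical to Bglap2 and 96.4% to Bglap3 over 439 of 440 bases.

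Bglap2, the neighbouring osteocalcin gene, had 928, 170 and 0 counts in the MEF2C libraries and 0, 0 and 43 in the GFP libraries. Bglap3 had 0, 3 and 0 counts against 0, 0 and 1. Summed over the 3 copies, osteocalcin came to 246, 47.3 and 0.242 CPM in the MEF2C libraries and 0, 0 and 11.7 in the GFP libraries. With the copies pooled, GFP replicate 3 lay above MEF2C replicate 3, and the groups overlapped. Ibsp, bone sialoprotein of the mineralising matrix, had 395, 142 and 1 counts in the MEF2C libraries and 0, 0 and 18 in the GFP libraries. Ibsp and Bglap2 thus were high in the same 3 libraries, and at 0 or 1 count in the other 3.

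Neither gene passed the test between the groups. Bglap2 had a log2 fold change of 4.52 ± 2.36 SE and Ibsp of 4.71 ± 2.15 SE, each with an edgeR adjusted p of 0.928. Without MEF2C replicate 1 the log2 fold changes were 2.37 and 3.34 (edgeR adjusted p = 0.997 for both). Without GFP replicate 3 the remaining GFP libraries were at 0 for both, so that the fitted values of 11.45 and 10.41 depend on the prior count (edgeR adjusted p = 0.998 for both). Spp1, osteopontin, made by bone cells and macrophages, had 390, 36 and 12 counts in the MEF2C libraries and 20, 3 and 55 in the GFP libraries, a log2 fold change of 2.34 ± 1.69 SE (edgeR adjusted p = 0.976), which turned to -0.32 without MEF2C replicate 1. Alpl, the tissue-nonspecific alkaline phosphatase of osteoblasts and of other tissues, had 58, 77 and 45 counts against 30, 26 and 45 (log2 fold change 0.62 ± 0.26 SE, edgeR adjusted p = 0.841). These 4 were the tested genes of a 16-gene list of osteoblasts and osteocytes, and edgeR called 0 of them, with 1 (Alpl) at an unadjusted p under 0.05; DESeq2 called 0 of 4.

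Across that list without Bglap, the 15 genes summed to 470, 111 and 16.5 CPM in the MEF2C libraries and 16.3, 11.8 and 46.1 in the GFP libraries. Osteocyte genes were sparse: Dmp1, a mineralisation protein, had 15, 3 and 3 counts against 1, 0 and 1, Mepe had 6, 0 and 0 against 0, 0 and 1, and Sost was at 0 everywhere. The osteoblast transcription factor Sp7 was also at 0 in all 6 libraries, and Runx2 had 3, 2 and 0 counts against 0, 1 and 1. Matrix transcripts were therefore detected without reads of Sp7.

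Bone reads and granulocyte reads did not go together in MEF2C replicate 2. There Bglap, Bglap2 and Ibsp, picked from the 16-gene list, had 329 reads and the 7 granulocyte genes 17. These bone genes made up 95.1% of the total of both (exact 95% interval 92.2% to 97.1%). In MEF2C replicate 1 they made up 22.5% (21.4% to 23.6%) of 1343 bone and 4633 granulocyte reads, and in GFP replicate 3 17.8% (13.9% to 22.3%) of 61 and 281. The whole 16-gene list had 463 reads in MEF2C replicate 2. It also outnumbered granulocyte reads in MEF2C replicate 3 (69 against 12), GFP replicate 1 (55 against 9) and GFP replicate 2 (37 against 7). The ratio of MEF2C replicate 1 to GFP replicate 3 was 21.1 for Bglap2 (counting interval 15.5 to 29.4) and 21.5 for Ibsp (13.4 to 36.6), inside the range of the 7 granulocyte genes. Between MEF2C replicates 1 and 2 the ratio was 5.68 for Bglap2 and 2.89 for Ibsp, and 284 for the summed granulocyte genes.

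**Figure D3:**
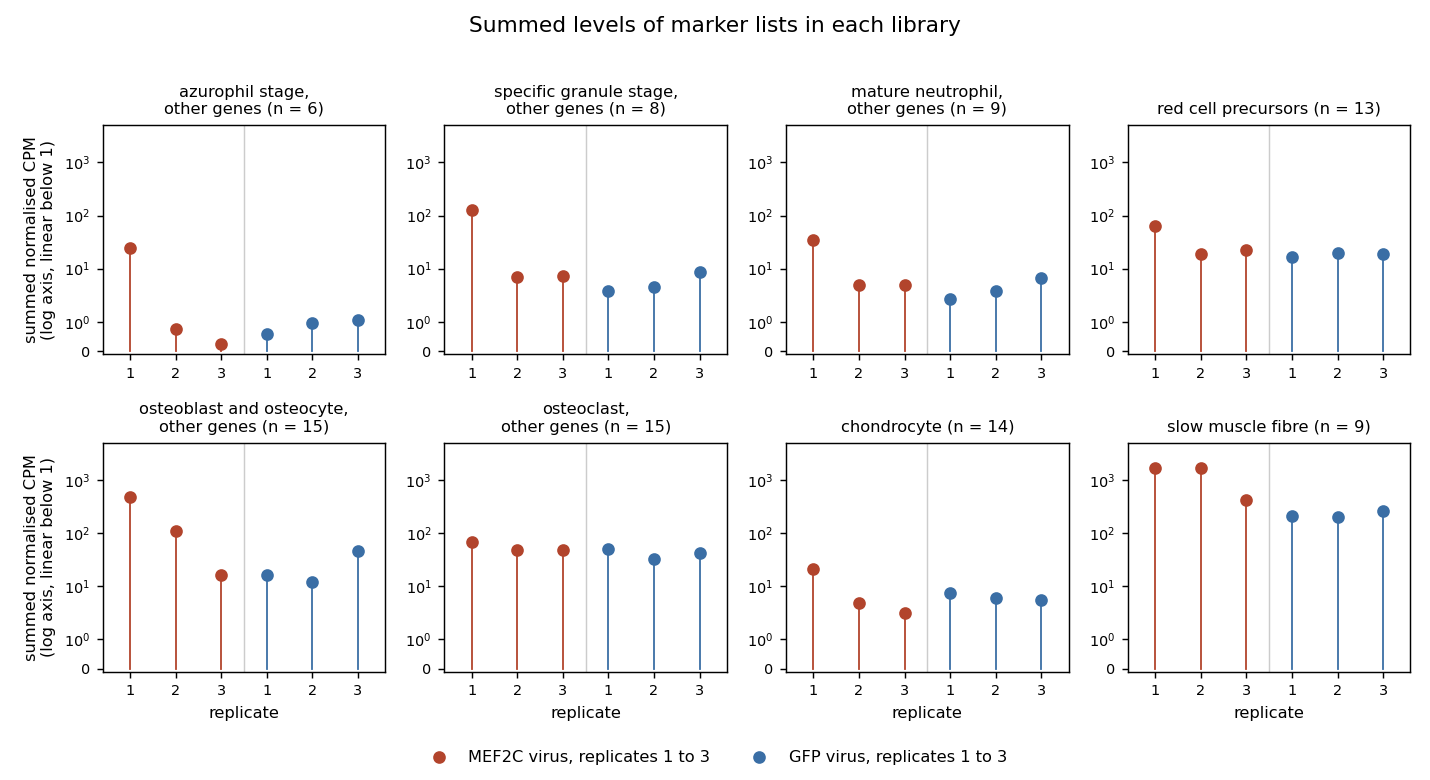
Summed normalised CPM of 8 marker lists (log axis, linear below 1) in the 3 MEF2C libraries (red, left) and the 3 GFP libraries (blue, right), with the number of genes in each panel's title; "other genes" means without the 10 genes chosen. Granulocyte lists are highest in MEF2C replicate 1, osteoblast genes in MEF2C replicates 1 and 2 and GFP replicate 3, and slow-fibre genes in MEF2C replicates 1 and 2.

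The osteoclast genes were less restricted and were detected in every library. Acp5 (ENSMUSG00000001348, chromosome 9, 22126727 to 22135711, minus strand) encodes tartrate-resistant acid phosphatase, which macrophages also make, and had 94, 70 and 14 counts in the MEF2C libraries and 12, 25 and 23 in the GFP libraries. MEF2C replicates 1 and 2 were the highest, while replicate 3 lay below every GFP library in CPM (3.39 CPM against 3.56, 7.98 and 6.10). The mean was 15.1 ± 10.7 CPM in the MEF2C group and 5.88 ± 2.22 CPM in the GFP group (SD, n = 3 each), 2.56 times as high, and 1.77 times without MEF2C replicate 1. The gene 6530413G14Rik overlaps Acp5 on the opposite strand.

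Ctsk (ENSMUSG00000028111, chromosome 3, 95499256 to 95509362, plus strand) encodes cathepsin K, the collagen-cutting protease of osteoclasts, which fibroblasts also express. It had 298, 133 and 114 counts in the MEF2C libraries and 99, 79 and 125 in the GFP libraries. Only MEF2C replicate 1, at 77.2 CPM, lay outside the range of 25.2 to 33.1 CPM that held the other 5. The mean was 46.0 ± 27.2 CPM in the MEF2C group and 29.2 ± 3.96 CPM in the GFP group (SD, n = 3 each), 1.57 times as high, and 1.04 times without MEF2C replicate 1. Bglap, Acp5 and Ctsk summed to 107, 54.8 and 31.2 CPM in the MEF2C libraries and 32.9, 33.2 and 39.2 in the GFP libraries, 1.83 times as high in the MEF2C mean.

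As a sum, other osteoclast genes varied less between libraries than Acp5 or Ctsk, though Car2 was highest in MEF2C replicate 1. The 15 besides Acp5 and Ctsk summed to 66.8, 48.1 and 48.9 CPM in the MEF2C libraries and 49.2, 32.2 and 41.6 in the GFP libraries, and 4 were highest in MEF2C replicate 1. The more specific of them had few reads: Atp6v0d2, a proton pump subunit, had 6, 0 and 1 counts against 0, 0 and 1, and Ocstamp, a fusion protein, 1, 3 and 0 against 1, 3 and 0. Siglec15 was at 0 in all 6. Car2, carbonic anhydrase 2, which red cells also carry, had 118, 29 and 36 counts in the MEF2C libraries and 16, 11 and 27 in the GFP libraries, with a log2 fold change of 1.56 ± 0.71 SE (edgeR adjusted p = 0.928), and of 0.61 without MEF2C replicate 1. Of 7 tested osteoclast genes, edgeR called 0, with 0 at an unadjusted p under 0.05, and DESeq2 called 0 of the 2 it tested.

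The genes whose reads were spread over the libraries most like each pattern were ranked by the percentage of overlap between library shares, where 100% means the same distribution, over the 6 libraries and 9586 genes with at least 50 counts. Nearest to the granulocyte sum were Chil3 at 97.4%, Prg2, the eosinophil major basic protein, at 97.1%, Retnlg at 95.4% and Ppbp, a platelet chemokine, at 93.5%. Bglap2 followed at 85.9%, Lcn2 at 85.3%, Prg4, the joint lubricant lubricin, at 84.0%, and Ly6c2, a monocyte marker, at 82.9%. The median gene reached 23.2%. Prg2 had 398, 2 and 0 counts in the MEF2C libraries and 0, 0 and 14 in the GFP libraries. Prg4 had 1498, 76 and 74 counts in the MEF2C libraries and 66, 23 and 189 in the GFP libraries, and so was present in all 6.

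Nearest to Bglap stood mostly slow-fibre genes. They were Tnni1 at 87.9%, Tnnc1 at 85.8%, Myl3 at 85.1%, Myl2 at 84.7%, Myh7 at 84.5% and Tnnt1 at 83.5%, with the matrix protease Mmp13, made by osteoblasts and cartilage cells, at 86.0% and Ibsp at 78.6%, where the median gene reached 35.7%. The slow-fibre list of 9 genes, all detected, summed to 1694, 1665 and 422 CPM in the MEF2C libraries and 208, 198 and 265 in the GFP libraries. The likeness to Bglap rests on its 38 reads, fewer than the 50 asked of the genes ranked. The slow-fibre sum was level between MEF2C replicates 1 and 2, where pooled osteocalcin was 5.19 times and Ibsp 2.89 times as high in replicate 1 as in replicate 2. In MEF2C replicate 3 it lay above every GFP library while pooled osteocalcin was at 0.242 CPM, and in GFP replicate 3, where bone reads were present, it was 265 CPM. Of the 9, edgeR called 0, with 8 at an unadjusted p under 0.05, and DESeq2 called 6, all higher; without MEF2C replicate 3 edgeR called 5. Their part in the Bglap counts was not tested.

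**Figure D4:**
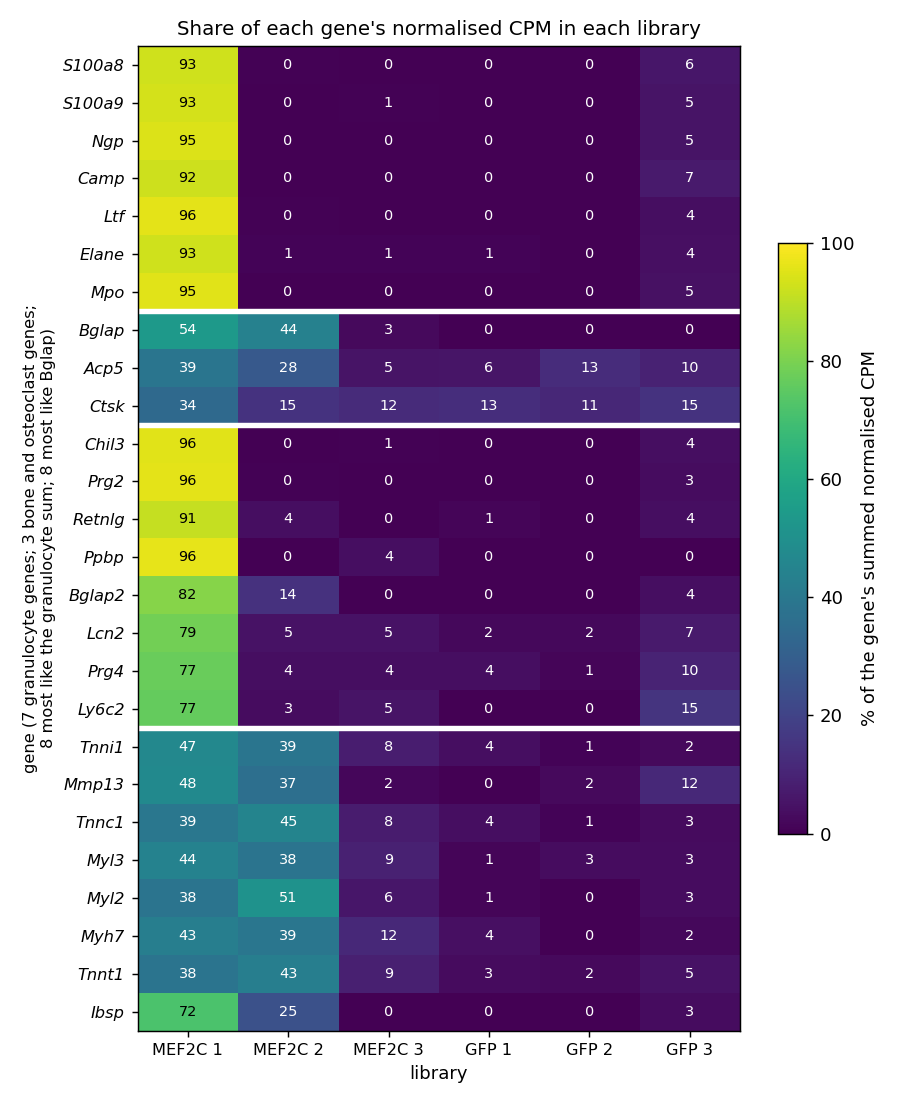
Percentage of each gene's summed normalised CPM that fell in each library (columns, the 3 MEF2C libraries before the 3 GFP libraries) for the 7 granulocyte genes, the 3 bone and osteoclast genes, the 8 genes most like the granulocyte sum and the 8 most like Bglap, in blocks from top to bottom. The granulocyte block has 92% to 96% in MEF2C replicate 1, and Bglap has 54% and 44% in MEF2C replicates 1 and 2.

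For Acp5 the nearest genes were Tpm3 of slow fibres at 89.3% and Hp, haptoglobin, at 87.2%, against a median of 66.4%. Likeness to Ctsk set genes less far apart, since the median gene reached 81.0%, while 81 of 9586 genes reached at least 90%. The nearest to Ctsk were Castor1 at 96.9% and Hbb-bt, a beta-globin chain, at 95.4%. Hba-a2 and Hbb-bs were also among its 8 nearest, at 94.8% and 94.3%.

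Markers of other marrow lineages were examined beside the granulocyte genes. Red cell precursor genes (13, all detected) summed to 63.5, 18.9 and 22.0 CPM in the MEF2C libraries and 16.9, 19.8 and 19.1 in the GFP libraries, and 12 of 13 were highest in MEF2C replicate 1. Rhd, the rhesus blood group protein, had 17 counts in MEF2C replicate 1 and 0 in the other 5 libraries, and Hemgn, a nuclear protein of blood precursors, had 14, 0 and 0 against 0, 0 and 2. Alas2, the haem synthesis enzyme of red cells, was the only one of them tested (log2 fold change 0.46 ± 0.23 SE, edgeR adjusted p = 0.900). Haemoglobin chains summed to 8601, 4375 and 4834 CPM in the MEF2C libraries and 3707, 3063 and 4150 in the GFP libraries. The B-cell precursor list summed to 5.70, 0.249 and 0 CPM in the MEF2C libraries and 0.593, 0 and 0.795 in the GFP libraries. Rag1, Rag2 and Vpreb2 were at 0 everywhere, while Vpreb3 had 16 counts in MEF2C replicate 1 and 0 elsewhere. B-cell genes (5, all detected) summed to 15.8, 0.996 and 1.21 CPM against 0.889, 2.23 and 3.18, and all 5 were highest in MEF2C replicate 1.

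Alas2 made up most of the red cell precursor sum outside MEF2C replicate 1, with 119, 71 and 83 counts in the MEF2C libraries and 55, 55 and 60 in the GFP libraries. Without it, a choice made after the values were seen, the other 12 genes summed to 32.6, 1.25 and 1.94 CPM in the MEF2C libraries and 0.593, 2.23 and 3.18 in the GFP libraries. MEF2C replicate 1 was thus the highest and GFP replicate 3 the next, on 12 reads. Platelet and megakaryocyte genes summed to between 99.9 and 130 CPM in the MEF2C group and 86.8 to 100.2 in the GFP group, most of it from Pf4, platelet factor 4. Without Pf4, likewise chosen after the values were seen, the other 9 summed to 19.2, 0.249 and 1.45 CPM in the MEF2C libraries and 0.889, 1.28 and 1.06 in the GFP libraries, and 6 of them were highest in MEF2C replicate 1. Macrophage and monocyte genes (12, all detected) ranged over 456 to 522 CPM in the MEF2C group and 324 to 581 in the GFP group, with GFP replicate 3 the highest. Cell division genes (11, all detected) summed to 59.1, 23.4 and 22.3 CPM in the MEF2C libraries and 19.0, 17.5 and 30.5 in the GFP libraries. The blood progenitor gene Myb was at 0 in all 6 libraries.

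Cartilage and tendon genes were compared as neighbours of bone. Chondrocyte genes (13 of 14 detected, Matn1 at 0) summed to 21.0, 4.73 and 3.15 CPM in the MEF2C libraries and 7.41, 6.06 and 5.57 in the GFP libraries. Col2a1, the main cartilage collagen, had 31, 1 and 1 counts in the MEF2C libraries and 0, 0 and 2 in the GFP libraries, and Snorc, a cartilage proteoglycan, had 12, 0 and 0 against 0, 0 and 3. Tendon genes (7, all detected) summed to 686, 415 and 501 CPM in the MEF2C libraries and 475, 319 and 355 in the GFP libraries. MEF2C replicate 1 was the highest library for the granulocyte, bone, cartilage and tendon sums. It was also the highest for the sums of red cell precursor, haemoglobin, B-cell precursor, B-cell and cell division genes. It was not the highest for marrow stroma, blood stem and progenitor, or fibroblast genes. Marrow stroma genes (6 of 7 detected) summed to 194, 171 and 219 CPM in the MEF2C libraries and 202, 178 and 189 in the GFP libraries. Blood stem and progenitor genes (3 of 4 detected) summed to 4.92, 4.98 and 5.32 CPM against 2.07, 5.10 and 7.42. Fibroblast genes (9, all detected) summed to 1794, 2322 and 2303 CPM against 2352, 2145 and 2189, lowest in MEF2C replicate 1. The part of marrow, bone or joint tissue in the values of the 10 genes was not tested.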

How the data were processed

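Libraries were made from 1 µg of total RNA by Nanopore PCR-cDNA sequencing with 14 PCR cycles, per the labels' protocols, without molecular identifiers there. The deposited table holds whole-number read counts per gene and CPM, per the file headers. The CPM the authors deposited are scaled to a library total of which the listed counts made up 95.6% to 96.4%, and were used only as an alternative scaling. The submitters' processing notes name minimap2, DESeq2 1.6.3 and GRCm38; which counter, annotation, filters and strand setting were used is not given there. Left out were 30 rows that name no gene and hold no counts.

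All 6 libraries were tested with edgeR 4.0.16 (R 4.3.3; quasi-likelihood, robust dispersion, filterByExpr, TMM, no covariate), with Benjamini-Hochberg adjustment over 9229 genes and a threshold of 0.05; fold changes are MEF2C over GFP. edgeR was tested on simulated data with the same dispersion for every gene. That setting is unlike the uneven granulocyte genes, so the simulation says nothing of the test for them. Alternatives were DESeq2 1.42.0, limma-voom (limma 3.58.1), other scalings and filters, non-robust dispersion, a replicate block and leaving out each library. Libraries of the same group differed by more than sampling noise (chi-square per degree of freedom 4.95 to 10.3). The labels name no separate animals, so p-values reflect spread among these libraries, which may be technical. Coordinates are from GENCODE vM21 (GRCm38); near copies were sought with BLAST 2.17.0. The 10 genes, marker lists and tests were chosen with earlier results of these data known. Named are the 10 genes, the lists for granulocytes, bone and cartilage, the called or highest genes of other lists, and the 8 nearest to each pattern; a few more (Rhd, Hemgn, Vpreb3, Rag1, Rag2, Vpreb2 and Myb) were chosen after their values were seen.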

Additional observations from a re-analysis of the deposited data

How the results depend on the processing

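The sum of the 7 granulocyte genes in the MEF2C mean over the GFP mean kept its direction under DESeq2 size factors, library totals and deposited CPM, and ranged from 0.135 to 164 when each library was left out. That of Bglap, Acp5 and Ctsk ranged from 1.23 to 2.30. The 7 calls over all genes became 35 with no low-count filter, 3 with a strict filter, 28 with DESeq2, 3 with limma-voom and 0 with non-robust dispersion in edgeR (557 at an unadjusted p under 0.05). Leaving out each library gave 0 (without GFP replicate 3, with 386 at an unadjusted p under 0.05) to 22 (without MEF2C replicate 3), with 3 and 1 without MEF2C replicates 1 and 2 and 2 without either other GFP replicate. With the replicate block 2 genes were called. Deviations from the group mean had correlations of -0.23, 0.05 and -0.25 between same-numbered libraries. Between differently numbered libraries the correlations ran from -0.12 to 0.32. With 3 libraries in each group these values cannot tell whether the numbers pair samples. Without MEF2C replicate 3 edgeR called Bglap and Acp5 (adjusted p = 0.0189 and 0.0255), which no other alternative did; both genes were chosen on these libraries, and nothing is read from it. The log2 fold change of Spp1 turned to -0.32 without MEF2C replicate 1 and ranged up to 3.41 without GFP replicate 3, and Mylpf lost its call with non-robust dispersion (adjusted p = 0.0780), the replicate block (0.0950) and without MEF2C replicate 1 or 2 or GFP replicate 2 or 3 (0.106 to 0.214); the cause was not tested. Of the other comparisons for single genes, 187 stayed within the replicate spread or on the same side of the threshold and 8 moved, each without MEF2C replicate 1. The 187 include large shifts and do not mean stable sizes. Without MEF2C replicate 1 the log2 fold change of Lcn2 fell from 2.85 to 0.28 and that of Bglap2 from 4.52 to 2.37. The deposited counts allowed no pseudocount alternative. Depth limits the genes with counts of 0 to 3.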

Other observations

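Mast cell genes were not raised in MEF2C replicate 1. Cma1, mast cell chymase, had 42, 131 and 130 counts in the MEF2C libraries and 43, 99 and 98 in the GFP libraries, so that MEF2C replicate 1 and GFP replicate 1 were the lowest. Tpsb2, a mast cell tryptase, had 38, 115 and 109 counts against 44, 76 and 72. Epx, the eosinophil peroxidase, had 14, 0 and 0 counts in the MEF2C libraries and 0, 0 and 1 in the GFP libraries, and Nkg7, a granule protein of T and NK cells, had 20, 9 and 2 against 2, 4 and 27, highest in GFP replicate 3. These genes were chosen after their values were seen.

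Other S100 genes and other lysosomal cathepsins, as summed lists, were not raised in MEF2C replicate 1 as the granulocyte genes were. The S100 proteins S100a1, S100a4, S100a6, S100a10, S100a11, S100a13 and S100b summed to 1659, 1688 and 1280 CPM in the MEF2C libraries and 1170, 1296 and 1540 in the GFP libraries. The 9 other cathepsins summed to 2189, 2138 and 1807 CPM against 2035, 2108 and 2276. edgeR called 0 of these 16 genes, with 1 of them (Ctsl) at an unadjusted p under 0.05, and DESeq2 called 0 of the 15 it tested.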
